A study of Homo sapiens with 4 samples.

Results

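The BCL2 family decides whether the outer membrane of the mitochondrion is opened during apoptosis. Its 10 members studied here were the pro-survival genes BCL2, BCL2L1 (BCL-XL), MCL1 and BCL2A1 (BFL1), the pore-forming effectors BAX and BAK1, and the BH3-only genes BCL2L11 (BIM), BID, BBC3 (PUMA) and PMAIP1 (NOXA). They were chosen by gene symbol, and all 10 had a value among the 19314 genes listed in the deposited table. RNA-seq was performed on U87 cells, a human malignant glioma line, in 4 libraries. In 2 libraries PTPRN was knocked down (labelled PTP2), and the 2 control libraries are labelled SCR, for which the study lists a scrambled hairpin. The hairpins were expressed from the pLKO.1 vector. The study lists 2 hairpins against PTPRN, and which of them the PTP2 libraries carried is not stated. Whether the cells were a pool or a clone, and whether the 2 libraries of a group came from separate cultures, is not stated, so the p-values below measure the spread between libraries, which may be technical.

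The family works by protein binding. Pro-survival members hold the BH3 helix of the effectors and of the BH3-only proteins in a surface groove. When BH3-only proteins accumulate, the grooves are filled, BAX and BAK1 are freed or activated, the outer membrane is permeabilised and cytochrome c reaches the cytosol, where caspases are activated. Malignant glioma cells are known to lean on BCL-XL and MCL1 for survival.

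The helix is the feature that all 10 members share. The coding strand around its core is shown for each of them, since it is through this helix that the proteins bind each other. Capitals mark the codon of the conserved leucine and the codon of the conserved aspartate 5 residues further on. The sequences were read 5′ to 3′ from the GENCODE 29 transcripts of GRCh38.
BCL2: ctgaccCTCcgccaggccggcGACgacttc
BCL2L1: caagcgCTGagggaggcaggcGACgagttt
MCL1: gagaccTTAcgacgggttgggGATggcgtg
BCL2A1: aagaatCTGaagtcatgcttgGACaatgtt
BAX: gagtgtCTCaagcgcatcgggGACgaactg
BAK1: cggcagCTCgccatcatcgggGACgacatc
BCL2L11: caagagTTGcggcgtattggaGACgagttt
BID: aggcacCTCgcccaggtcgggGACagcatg
BBC3: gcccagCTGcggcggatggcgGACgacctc
PMAIP1: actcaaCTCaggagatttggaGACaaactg

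The search looked for a leucine, any 3 residues, then glycine, alanine or leucine, then aspartate, and each member held 1 match in the transcript used. Only BBC3 has the alanine and only BCL2A1 the leucine before the aspartate, so the match of all 10 depends on allowing both. The pattern is loose, and 39% of the 19546 coding genes searched also held it. The aspartate codon was GAC in 9 of the 10 members and GAT in MCL1. Of the 30 bases, BAK1 and BID shared 21, the most of any pair, BCL2L11 and BCL2L1 shared 20, and BCL2 and BCL2L1 shared 19. BCL2A1 and MCL1 shared 9, the fewest. In BAX the stretch lies in exon 3 on chromosome 19 (chr19:48955781-48955810, plus strand), and in BCL2L11 it lies in exon 4 on chromosome 2 (chr2:111150097-111150126, plus strand). In PMAIP1, which encodes only 54 residues, it lies in exon 2 on chromosome 18 (chr18:59902667-59902696, plus strand).

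PTPRN, the targeted gene, had an FPKM of 12.09 and 11.68 with PTP2 against 84.84 and 85.02 with SCR. FPKM gives sequenced fragments relative to the length of the transcript and to the size of the library. Its log2 fold change was -2.74 (SE 0.03, adjusted p = 1.48e-04, limma). The target of the hairpin listed as shPTPRN-2, whose number is that of the label though the link is not stated, lies on chromosome 2 (chr2:219302373-219302393, GRCh38, minus strand) and is aactgcctccaagGGCATATt, with the 7-base site of the guide's seed in capitals. None of the 10 members held GGCATAT in the 3′ UTR of the transcript used, a site found in 5.73% of the 18599 genes with such a UTR. At that share, few sites would be found in 10 genes in any case. Other transcripts were not searched for the site. The UTR used had 1593 bases in BCL2 and 820 in BCL2L11, whose longest listed transcripts have 6492 and 5231 bases. Any coding transcript of a member differed from the 21-base target at 7 or more positions.

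The depth, estimated from the steps in the FPKM of weakly expressed genes, was about 18.0 M and 18.0 M reads with PTP2 and 19.5 M and 17.9 M reads with SCR. Of the glioma cell line markers, 7 of 10 reached an FPKM of 10, with VIM, TNC, CD44 and SPARC the highest, while SOX2, S100B and GFAP stayed below 1 in all libraries. Of these 10 markers 3 were higher and 5 lower with PTP2 at an adjusted p of 0.05 in limma (80%, against 57.9% of all genes). Their median log2 fold change was -0.26. Their summed FPKM was 5337 to 5539 with PTP2 and 3143 to 3226 with SCR, and VIM alone was at 4766 and 4565 against 1998 and 1918, while TNC was at 263 and 269 against 684 and 689. The growth protocol recorded with the libraries names hCMEC/D3, a brain endothelial line. However, 0 of the 10 endothelial markers reached 10 and 8 stayed below 1, CDH5 and VWF among them. VWF was at 0.06 and 0.05 with PTP2 and just under 1 with SCR (0.98 and 0.93). PECAM1 was at 1.21 and 1.26 against 2.39 and 2.50, and TEK at 0.97 and 1.08 against 0.45 and 0.60. The sum of the endothelial markers was 4.03 to 4.57 with PTP2 and 4.72 to 4.77 with SCR. Of 9 myeloid markers with a value 1 reached 10 (CD68, with 74.3% of its 50-base stretches in other genes too), and PTPRC, CD14 and SPI1 stayed below 1. That sum was 346 to 364 with PTP2 and 237.7 to 238.1 with SCR. Of 9 epithelial markers 0 reached 10, EPCAM and CDH1 stayed below 1, and the sum was 4.19 to 4.21 with PTP2 and 10.7 to 11.2 with SCR. The part of these shifts in the results below was not tested. In bulk RNA, fewer cells of a type and less RNA per cell cannot be told apart.

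With PTP2, pro-survival and BH3-only genes each moved in both directions. BCL2L1 fell, with a ratio of group means of 0.582, while MCL1 rose (1.27). BCL2A1 passed as higher, but on few reads and in only 5 of 11 alternative settings. BCL2L11 (0.301), BID (0.639) and BBC3 (0.623) fell among the BH3-only genes and PMAIP1 rose (1.35). BAK1 fell slightly, and BAX and BCL2 did not pass the test. In all, 8 of the 10 members passed an adjusted p of 0.05 in limma on log2(FPKM + 1), 3 of them higher and 5 lower, where 57.9% of the 16595 genes tested did (30.8% higher and 27.1% lower). The groups did not overlap in any of the 10 members (3 higher and 7 lower with PTP2), which was also the case for 75.6% of all genes (39.7% higher and 35.8% lower). None of the 10 passed the study's thresholds of a fold change of 2 and an adjusted p of 0.001, which 6.69% of all genes passed (2.63% higher and 4.06% lower). At an unadjusted p under 0.05, 8 members and 62.2% of all genes passed. The median log2 fold change was -0.19 over the members, 0.01 over all genes and 0.06 over the 11272 genes whose FPKM averaged 1 or more. The median size of the change was 0.46 over the members, 0.25 over all genes and 0.38 over those 11272 genes, which leave out BCL2 and BCL2A1. With any 1 library left out, 5 members passed an adjusted p of 0.05, as did 37.2% to 38.2% of all genes (limma).

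**Figure D1:**
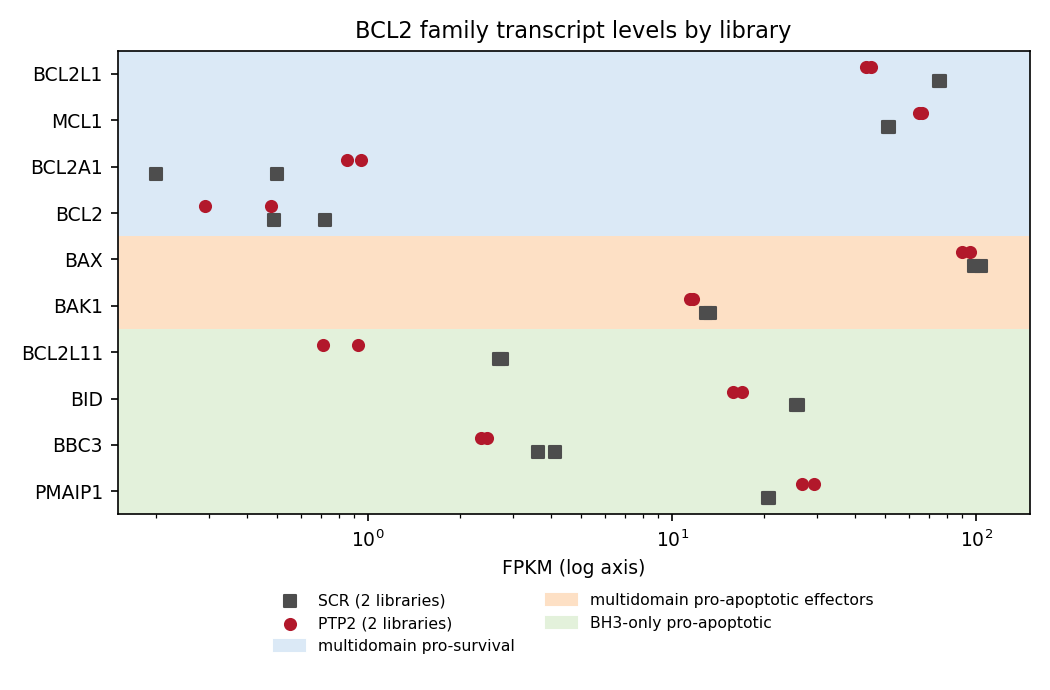
FPKM of each member (log axis) in the 2 PTP2 libraries (circles) and the 2 SCR libraries (squares), with the functional class as background colour. BCL2L1 lies at 43.29 and 45.02 with PTP2 against 75.61 and 76.21 with SCR, while MCL1, PMAIP1 and BCL2A1 lie higher with PTP2.

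BCL2L1 encodes BCL-XL, which holds BAX, BAK1 and most BH3-only proteins in check. The gene (Gene ID 598) spans 31664452 to 31723999 on the minus strand of chromosome 20. Its FPKM was 43.29 and 45.02 with PTP2 and 75.61 and 76.21 with SCR. Both PTP2 libraries lay far below both SCR libraries. The mean fell from 75.9 ± 0.424 (SD, n = 2) to 44.2 ± 1.22 (SD, n = 2), a ratio of 0.582. The log2 fold change was -0.77 (SE 0.03, adjusted p = 5.53e-04, limma), with a range of -0.86 to -0.74 over 12 alternative settings, past 0.05 in each. The SCR libraries held about 4075 and 3771 reads of this gene and the PTP2 libraries about 2154 and 2240, so counting error is small here.

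MCL1 is a short-lived pro-survival protein that holds BAK1, BCL2L11 and PMAIP1. The gene (Gene ID 4170) lies on chromosome 1 from 150574551 to 150579738 on the minus strand. Its FPKM was 64.93 and 66.47 with PTP2 and 51.30 and 51.81 with SCR. It moved opposite to BCL2L1, with both PTP2 libraries above both SCR libraries. The mean rose from 51.6 ± 0.361 (SD, n = 2) to 65.7 ± 1.09 (SD, n = 2), a ratio of 1.27. On the log2 scale the change was 0.34 (SE 0.03, adjusted p = 0.00219, limma), with a range of 0.27 to 0.36 over 12 settings, past 0.05 in each.

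The leading pro-survival transcript therefore differed between the groups. The ratio of MCL1 to BCL2L1 FPKM was 1.5 and 1.48 in the PTP2 libraries and 0.679 and 0.680 in the SCR libraries. On the log2 scale the ratio was higher by 1.13 with PTP2. The exact permutation test (two-sided) gave p = 0.333, the smallest value that 2 libraries against 2 allow. BCL2L1 made up 39.5% and 39.9% of the summed pro-survival FPKM with PTP2 and 59.1% and 59.1% with SCR. MCL1 made up 59.3% and 59.0% with PTP2 and 40.1% and 40.2% with SCR. The ratio is taken within a library and needs no scaling between libraries.

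BCL2A1, an NF-kappa B target best known from blood cells, was barely expressed. Its FPKM was 0.85 and 0.95 with PTP2 and 0.50 and 0.20 with SCR, on about 14 and 15 reads against about 9 and 3. The PTP2 libraries were higher, but the SCR libraries differed from each other by more than the PTP2 libraries did. The log2 fold change of 0.50 (SE 0.12, adjusted p = 0.0336, limma) rests on these few reads. The ratio of means of 2.57 was 4.5 without SCR replicate 1 and 1.8 without SCR replicate 2. BCL2A1 lost the call without PTP2 replicate 1 (adjusted p = 0.199, limma), without PTP2 replicate 2 (0.238) and without SCR replicate 2 (0.0685), and with a pseudocount of 0.1 the log2 fold change was 1.24 (adjusted p = 0.083, limma). The replicate number as a block gave 0.0637. At this depth the difference in BCL2A1 is poorly resolved.

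BCL2, the founding member, was also weakly expressed, at about 34 to 83 reads. Its FPKM was 0.48 and 0.29 with PTP2 and 0.49 and 0.72 with SCR. PTP2 replicate 1 and SCR replicate 1 were almost equal. On the log2 scale BCL2 differed by -0.21 (95% interval -0.52 to 0.10, adjusted p = 0.184, limma), and none of 11 alternative settings brought it past 0.05. With SCR, BCL2 and BCL2A1 overlapped in level, and both lay far under the levels of BCL2L1 and MCL1.

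BAX, which forms the pore when activated, was the most abundant member in every library. Its FPKM was 95.41 and 89.70 with PTP2 and 103.93 and 98.17 with SCR. The PTP2 libraries were lower, but the gap between the groups was smaller than the distance between the libraries of a group. The log2 fold change was -0.13 (95% interval -0.27 to 0.02, adjusted p = 0.120, limma). With quantile normalization it was -0.23 and passed (adjusted p = 0.0187, limma).

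BAK1, the other effector, resides on the outer mitochondrial membrane. Its FPKM was 11.72 and 11.45 with PTP2 and 12.94 and 13.34 with SCR. The groups did not overlap, and the mean fell from 13.1 ± 0.283 (SD, n = 2) to 11.6 ± 0.191 (SD, n = 2). The log2 fold change was -0.17 (SE 0.03, adjusted p = 0.0188, limma). The call was lost when any library was left out (PTP2 replicate 1 0.0746, PTP2 replicate 2 0.0934, SCR replicate 1 0.0594 and SCR replicate 2 0.0773, adjusted p in limma). Of the 50-base stretches of its transcripts, 12.3% also occur in the pseudogene BAK1P1, so the level of BAK1 is uncertain. The ratio of BAX to BAK1 was 8.14 and 7.83 with PTP2 and 8.03 and 7.36 with SCR, and the groups overlapped.

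**Figure D2:**
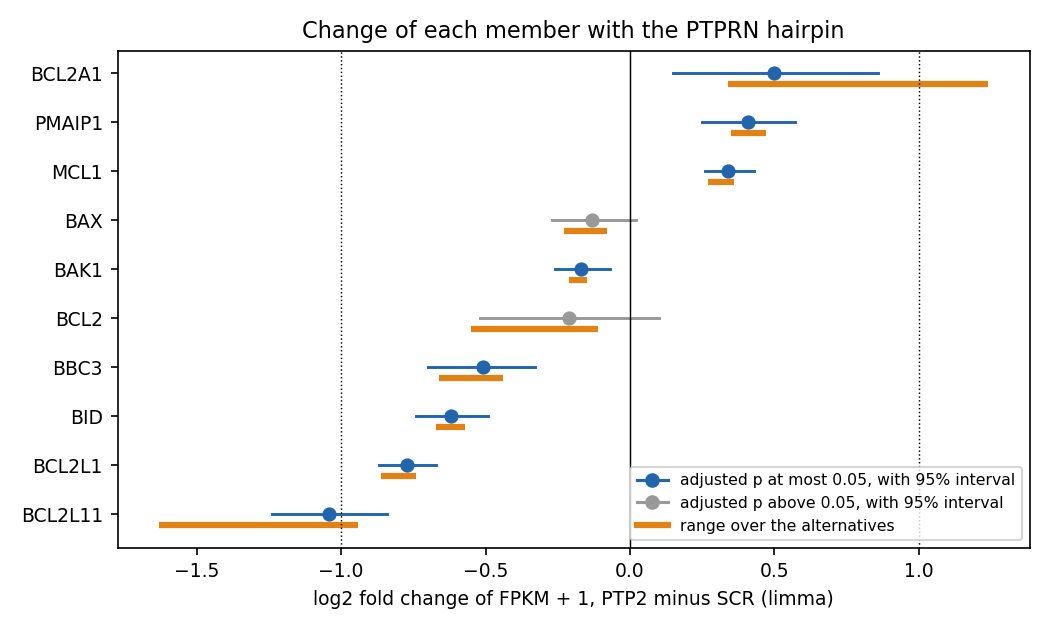
Log2 fold change of FPKM + 1 for each member, PTP2 minus SCR, from limma with its 95% interval (thin line) and the range over the alternative settings (orange line). Dotted lines mark a fold change of 2. BCL2L11 reaches -1.04 and BCL2A1 has the widest range over settings, from 0.34 to 1.24.

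BCL2L11 encodes BIM, a BH3-only protein that binds all pro-survival members and is known as a FOXO3 target. The gene (Gene ID 10018) spans 111120914 to 111168445 on the plus strand of chromosome 2. Its FPKM was 0.93 and 0.71 with PTP2 and 2.75 and 2.70 with SCR. Both PTP2 libraries lay far below both SCR libraries, at about 87 and 66 reads against about 278 and 251. The mean fell to 0.301 of its SCR level, from 2.73 ± 0.0354 (SD, n = 2) to 0.82 ± 0.156 (SD, n = 2). On the log2(FPKM + 1) scale, which understates changes of low genes, the fold change was -1.04 (SE 0.07, adjusted p = 0.00116, limma), just outside the threshold of 0.001. With a pseudocount of 0.1 it was -1.63 (adjusted p = 0.00528, limma). It passed 0.001 with a robust eBayes trend, and when genes were required to reach an FPKM of 1 in 2 libraries. BCL2L11 met that filter only through the SCR libraries, where it was higher, so the filtered fit lends it no separate support. Without SCR replicate 1 the adjusted p was 0.0503 (limma).

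BID is activated by caspase-8 and links death receptors to the mitochondrion. Its FPKM was 16.97 and 15.86 with PTP2 and 25.85 and 25.53 with SCR. The groups stood well apart, and the mean fell from 25.7 ± 0.226 (SD, n = 2) to 16.4 ± 0.785 (SD, n = 2). Its log2 fold change was -0.62 (SE 0.04, adjusted p = 0.00131, limma), past 0.05 in all 12 alternative settings.

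BBC3 and PMAIP1, the genes of PUMA and NOXA, moved in opposite directions. BBC3 had an FPKM of 2.36 and 2.47 with PTP2 and 4.13 and 3.62 with SCR. Its log2 fold change was -0.51 (SE 0.06, adjusted p = 0.0052, limma). The call was lost without PTP2 replicate 1 (adjusted p = 0.0897, limma) and without PTP2 replicate 2 (0.0801). PMAIP1 had an FPKM of 29.20 and 26.66 with PTP2 and 20.89 and 20.62 with SCR. NOXA binds MCL1 and BCL2A1 with preference. Its log2 fold change was 0.41 (SE 0.05, adjusted p = 0.0061, limma), and the call was lost without SCR replicate 1 (0.0959) and without SCR replicate 2 (0.0995). The ratio of PMAIP1 to MCL1 was 0.450 and 0.401 with PTP2 and 0.407 and 0.398 with SCR, so the groups overlapped.

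The summed level of the family was lower with PTP2, and so was the sum of each functional class. The 10 members together reached an FPKM of 266 and 260 with PTP2 and 298 and 293 with SCR, a ratio of means of 0.889. The pro-survival genes summed to 109.5 and 112.7 with PTP2 and 127.9 and 128.9 with SCR. The effectors summed to 107.1 and 101.2 against 116.9 and 111.5, and the BH3-only genes to 49.46 and 45.7 against 53.62 and 52.47. Without BCL2L1, the sum was 223 and 215 with PTP2 and 223 and 217 with SCR (ratio of means 0.995), and the groups overlapped. In that sum, lower levels of BID and BAX stood beside higher levels of MCL1 and PMAIP1. The pro-survival genes held 41.2% and 43.4% of the sum of all 10 members with PTP2 and 42.9% and 44.0% with SCR, and the groups overlapped. The effectors held 40.2% and 39.0% against 39.2% and 38.1%, which also overlapped. The share of the BH3-only genes was 18.6% and 17.6% against 18.0% and 17.9%. These shares cover the 10 members only. They leave out BAD, at a mean FPKM of 59.8 with PTP2 and 53.5 with SCR, and BCL2L2, at 12.45 and 13.1. The level of BCL2L2 is uncertain, since 17.9% of its 50-base stretches also occur in BCL2L2-PABPN1, which overlaps it on the same strand. The ratio of BAX to BCL2L1 was 2.20 and 1.99 with PTP2 and 1.38 and 1.29 with SCR. That of BAX to MCL1 moved the other way, at 1.469 and 1.349 with PTP2 against 2.026 and 1.895 with SCR. The ratio of BCL2L11 to BCL2L1 was 0.0215 and 0.0158 with PTP2 and 0.0364 and 0.0354 with SCR. The groups did not overlap in any of these ratios. FPKM counts transcripts and not proteins, and the transcripts of a gene were summed, so BCL-XL and the short pro-apoptotic form of the same gene are not separated.

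**Figure D3:**
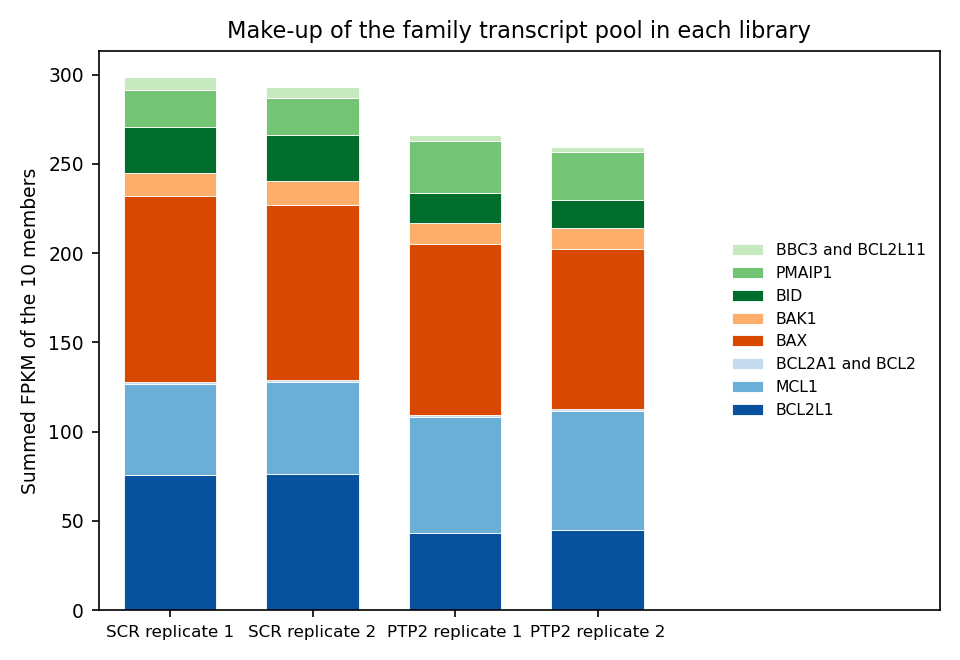
Summed FPKM of the 10 members in each library, stacked by gene (BCL2A1 with BCL2, and BBC3 with BCL2L11, are drawn together). The bars reach 298 and 293 with SCR and 266 and 260 with PTP2, and the BCL2L1 and MCL1 segments exchange their order of size.

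Ranked by mean FPKM, the order with SCR was BAX, BCL2L1, MCL1, BID, PMAIP1, BAK1, BBC3, BCL2L11, BCL2 and BCL2A1. The libraries of neighbours did not overlap except for BCL2 and BCL2A1. With PTP2 the order was BAX, MCL1, BCL2L1, PMAIP1, BID, BAK1, BBC3, BCL2A1, BCL2L11 and BCL2, and BCL2A1 and BCL2L11 overlapped. Both MCL1 with BCL2L1 and PMAIP1 with BID changed places.

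All 67 further genes of the apoptosis machinery that were looked up had a value (MARCH5 under 1 of its 2 symbols), and 26 were higher and 22 lower with PTP2 at an adjusted p of 0.05 (71.6%, limma), against 57.9% of all genes. Fold change 2 and adjusted p 0.001 were passed by 2 higher and 4 lower genes (8.96%, against 6.69% of all genes). The median log2 fold change was 0.03 over the 67 genes and 0.01 over all genes. By list it was 0.40 for the mitochondrial partners, 0.17 for the inhibitors of apoptosis, 0.05 for the death receptors, -0.06 for the other family genes, -0.16 for MCL1 turnover, -0.23 for the transcription factors and -0.26 for the caspases.

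Among 13 other BCL2 family genes, 2 were higher, 3 were lower and 8 did not pass (38.5% passed, against 57.9% of all genes). BNIP3 and BNIP3L, BH3-like mitophagy receptors known to be induced by hypoxia, fell most. BNIP3 had an FPKM of 83.22 and 83.46 with PTP2 and 217.98 and 222.65 with SCR (log2 fold change -1.39, adjusted p = 2.42e-04, limma). BNIP3L had 46.73 and 47.29 against 101.56 and 102.74 (log2 fold change -1.10, adjusted p = 2.99e-04, limma). Of the transcripts of BNIP3, 9.92% of the 50-base stretches occur in other genes too, among them BNIP3P1. BCL2L12 rose by 0.66 (adjusted p = 0.00313, limma), a call lost without SCR replicate 1 (0.0686) or SCR replicate 2 (0.0759). BMF, another BH3-only gene, rose by 0.45 (adjusted p = 0.00513, limma), and BCL2L13 fell (-0.16, adjusted p = 0.0358, limma). BMF lost its call without any 1 library (0.0547 to 0.0686), and BCL2L13 likewise (0.0537 to 0.183). The call of BCL2L13 was also lost with the replicate block (0.075) and with a pseudocount of 0.1 (0.0676). BAD encodes a BH3-only protein that AKT phosphorylates. Its mean FPKM was 59.8 with PTP2 and 53.5 with SCR (log2 fold change 0.16, adjusted p = 0.062, limma). BOK, BIK, HRK, BCL2L10 and BCL2L14 had a mean FPKM under 0.1 in both groups.

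Genes of the mitochondrial partners and the apoptosome were mostly higher with PTP2, with 11 of 13 past the test, 1 lower and 1 that did not pass. In this list 92.3% passed in either direction, against 57.9% of all genes. AIFM1, a mitochondrial flavoprotein released in cell death, rose from 18.15 and 18.14 to 29.66 and 30.32 (log2 fold change 0.69, adjusted p = 5.23e-04, limma). HTRA2, a protease that relieves caspase inhibition, rose by 0.60 (adjusted p = 0.00181, limma). VDAC2, the channel that recruits BAK1, rose by 0.66 (adjusted p = 6.93e-04, limma), but 23.2% of its 50-base stretches occur in another gene, which leaves its level uncertain. ENDOG, a mitochondrial nuclease, fell (-0.47, adjusted p = 0.028, limma), a call lost without PTP2 replicate 2, SCR replicate 1 or SCR replicate 2 (up to 0.231). CASP9, the caspase of the apoptosome, did not pass (0.06, adjusted p = 0.473, limma).

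The inhibitors of apoptosis proteins had 4 genes higher and 0 lower of 7 (57.1% passed, near the 57.9% of all genes). BIRC3 (cIAP2), which restrains death receptor signalling and is an NF-kappa B target, was listed at 4.77 and 4.66 with PTP2 and at 0.19 and 0.15 with SCR. The log2 fold change was 2.29 (adjusted p = 1.58e-04, limma), and 4.16 with a pseudocount of 0.1. BIRC5 (survivin) rose by 0.59 (adjusted p = 6.17e-04, limma) and BIRC2 by 0.53 (adjusted p = 8.07e-04, limma). XIAP, which blocks caspases directly, rose by 0.17 (adjusted p = 0.0168, limma), a call lost without any 1 library (0.0525 to 0.0914). Among the 6 caspases, 1 was higher and 4 were lower (83.3% passed, against 57.9% of all genes). CASP10, an initiator caspase, fell from 3.16 and 2.96 to 1.79 and 1.69 (-0.57 on the log2 scale, adjusted p = 0.00146, limma). CASP6, an effector caspase, fell too (-0.32, adjusted p = 0.00304, limma).

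Of 10 death receptor genes 3 were higher and 4 lower (70% passed, against 57.9% of all genes). TNFSF10 (TRAIL), the ligand of the receptors TNFRSF10A and TNFRSF10B, fell from 2.09 and 2.04 to 0.38 and 0.32 (log2 fold change -1.18, adjusted p = 3.55e-04, limma). Its PTP2 values rest on about 13 and 11 reads. Both receptors rose. TNFRSF10B went from 38.65 and 38.37 to 49.62 and 49.94 (0.36, adjusted p = 0.00159, limma). TNFRSF10A, at about 22 and 23 reads with PTP2, went from 0.32 and 0.36 to 0.72 and 0.75 (0.37, adjusted p = 0.00217, limma). RIPK1 (-0.69, adjusted p = 0.00162, limma) and TNFRSF1A (-0.62, adjusted p = 6.72e-04, limma), which act in the TNF receptor complex, fell. TRADD, an adaptor of the same complex, fell (-0.55, adjusted p = 0.00242, limma), a call lost without SCR replicate 1 (0.0652) or SCR replicate 2 (0.0642).

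Of 12 transcription factors known to act on the members, 4 were higher and 7 lower (91.7% passed, against 57.9% of all genes). E2F1, a cell cycle factor, rose by 1.05 (adjusted p = 4.62e-04, limma). ATF4, which acts in the stress response, fell from 232.57 and 236.26 to 139.94 and 143.01 (-0.72 on the log2 scale, adjusted p = 5.21e-04, limma). FOXO3 fell from 13.39 and 13.22 to 8.68 and 8.77 (-0.56, adjusted p = 6.93e-04, limma). For both the level is uncertain, since 17.9% (ATF4) and 27.8% (FOXO3) of their 50-base stretches are shared with other genes. DDIT3 (CHOP) rose by 0.71 (adjusted p = 0.00219, limma), a call lost without SCR replicate 1 (0.0629) or SCR replicate 2 (0.0654). Whether the shift of any factor bears on a member was not tested.

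Of 6 measured genes in the list for MCL1 turnover, 1 was higher and 3 lower (66.7% passed, against 57.9% of all genes). Whether each of them acts on MCL1 in these cells was not tested. The ubiquitin ligases HUWE1 (-0.48, adjusted p = 0.00236, limma) and FBXW7 (-0.43, adjusted p = 0.00179, limma), which mark MCL1 for degradation, fell. USP9X, which is not a ligase, fell as well (-0.25, adjusted p = 0.0265, limma), so the lower genes of this list do not share 1 role. MARCH5, a ligase of the outer mitochondrial membrane, rose by 0.53 (adjusted p = 0.00226, limma), a call lost without PTP2 replicate 1 (0.0562) or PTP2 replicate 2 (0.0542).

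In level and change together, over the 4 libraries, the genes closest to BCL2L11 were VMAC (distance 0.070 in log2(FPKM + 1)), HEXDC (0.146) and CLTCL1 (0.172). VMAC had an FPKM of 0.91 and 0.68 with PTP2 and 2.60 and 2.64 with SCR. The closest to BCL2L1 were BIN1 (0.070), DHCR7 (0.076) and CREB3L1 (0.140). BIN1 had an FPKM of 43.67 and 42.93 with PTP2 and 76.28 and 76.70 with SCR.

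The reads of some members cannot be assigned with certainty, since the use of strand in counting is not stated. Antisense genes overlap BCL2 and BCL2L1 (ABALON among the latter), and the lincRNA MIR4435-2HG overlaps BCL2L11 on the opposite strand. ADAMTSL4-AS1 overlaps MCL1 on the same strand, and the pseudogene GGNBP1 overlaps BAK1 on the opposite strand. Of the 50-base stretches of BCL2A1, 4.42% also occur in ST20, and 0.894% of those of BID and 0.838% of those of BBC3 occur elsewhere. BCL2, BCL2L1, MCL1, BAX, BCL2L11 and PMAIP1 shared none.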

How the data were processed

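RNA of U87 cells was sequenced single-end with 50-base reads on a BGISEQ-500 in 4 libraries. The submitters' processing notes name HISAT2 2.1.0 and hg19, but 97.2% of 18807 genes matched by symbol overlapped their GENCODE 29 position on GRCh38, which was therefore used. The authors deposited FPKM values per gene and library in 2 tables, and 0 of 66380 values differed between them. The counting program is not given in the sources used here. The core table also holds the authors' fold changes, p-values and annotations, which were not used. Of 19314 genes, 16595 had a value above 0 in any library and entered a limma model (version 3.58.1, R 4.3.3) of log2(FPKM + 1) on the group, with Benjamini-Hochberg adjustment over all of them. Each gene had 3.72 degrees of freedom, 1.72 of them borrowed from other genes. The script was tested on simulated data.

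Groups were taken from the sample titles. Reads per gene were estimated from FPKM, the longest transcript less 40 bases and the depth at which FPKM times length fell on whole numbers in genes with 1 transcript of 300 to 1200 bases (85.8% to 90.9% of low values lay within 0.15 of a whole number). They cover counting error only. The members and lists were chosen with earlier results of these data known. Named genes are the members, PTPRN, list genes past fold change 2 and adjusted p 0.001, at most 3 more per list with the largest change past 0.05 and a mean FPKM of 1 or more in the higher group, the highest markers, and the 3 nearest genes by Euclidean distance of the 2 members with the largest change. BAD, BCL2L2, ENDOG, CASP9, TNFRSF10A, TNFRSF10B, USP9X and genes near 0 were named after their values were seen. Coding stretches were read from the transcript with the best APPRIS rank and longest coding sequence. Values of 2 list genes are not reported here, though the list counts include them. Amino acid tables were not used here. Alternatives were other pseudocounts, filters, scalings, eBayes options, a replicate block and leaving out each library.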

Additional observations from a re-analysis of the deposited data

How the results depend on the processing

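BCL2L1, MCL1 and BID kept their direction and an adjusted p under 0.05 under all 12 alternatives, as did PTPRN (log2 fold change -2.83 to -2.71), and no member changed direction under any alternative that gave it a value. BCL2 and BCL2A1 had no value with the minimum FPKM. With 1 library left out, which leaves a group with a lone library assumed to vary like the other group, 5 members passed 0.05 in each fit, 1 to 2 of them higher and 3 to 4 lower, and over all genes 6181 to 6332 passed 0.05 and 0 passed fold change 2 and adjusted p 0.001. Fewer samples enter these fits. That stricter count over all genes was 1111, and 0 with a pseudocount of 0.1 and 0 with the replicate block. Among members it was 1 with the minimum FPKM and 1 with the robust eBayes trend (BCL2L11 in both). The cause of these differences was not tested. BCL2L11 met the minimum FPKM only through the SCR libraries, where it was higher. The replicate numbers were not taken to pair the libraries (2 pairs, correlation of deviations 0.0635 over 11272 genes), and with the replicate block 7 members and 9139 genes passed 0.05. The list genes past 0.05 numbered 48, and 35 to 50 under the alternatives. Without BAX, the pro-survival share was 65.3% with PTP2 and 66.0% with SCR. The 12th alternative, a pseudocount of 0.1 with an eBayes trend, and the alternatives for the lists, the MCL1 to BCL2L1 ratio and the sum without BCL2L1 were chosen after seeing the data. Median-ratio scaling moved the median of all genes from 0.012 to -0.001. Depth limits BCL2 and BCL2A1 most.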
